A study of Mus musculus with 6 samples.

Results

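A set of 10 transcription and chromatin regulators of spermatogonia and oocytes was followed in mouse embryonic stem cells with and without a vitamin C derivative. They are Sohlh1, Sohlh2, Figla, Nobox, Lhx8, Taf7l, Taf4b, Dmrtb1, Dmrt1 and Brdt. They were chosen by gene symbol for their roles in germ cells, with earlier results of these data known. All 10 were found, each on exactly 1 feature (a set of probes summarised to 1 value) that carries no other gene symbol. They are 10 of the 22180 genes so measured, on 23521 of the table's 41345 features.

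The cells were R1, a male embryonic stem cell line of 129X1 x 129S1 strain background derived from the inner cell mass. All were grown on gelatin in serum with LIF, the cytokine that sustains self-renewal. Untreated cultures (3 arrays) were compared with cultures kept for 3 days in 0.74 mM (250 µg/ml) AA2G, ascorbic acid 2-glucose in the labels' spelling, a vitamin C derivative from which cells release ascorbate (3 arrays). The labels call the 3 samples of a group independent replicates of this 1 line. RNA was hybridised to Affymetrix Mouse Gene arrays, and the values are log2 expression after RMA, which corrects background, normalizes between arrays and summarises each feature's probes.

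Germ cells of both sexes use dedicated transcription factors together with germ cell versions of general transcription machinery. SOHLH1 and SOHLH2 are related basic helix-loop-helix proteins that can pair with each other and are needed for spermatogonia to differentiate and for oocytes of early follicles to survive. FIGLA, NOBOX and LHX8 act in the oocyte, TAF7L and TAF4B are gonad-enriched relatives of TFIID subunits, DMRT1 and DMRTB1 steer spermatogonia before meiosis, and BRDT reads acetylated histones in the testis. Many germ cell genes have promoters with CpG sites that are methylated in somatic cells, and the TET enzymes that oxidise methylated cytosine use ascorbate as a cofactor.

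The first results concern Sohlh2 and its partner gene, so the promoters of both are shown, with that of Taf7l, the only other regulator whose arrays separated by group. Each line gives the 250 bases before the annotated start, 5′ to 3′, from RefSeq on GRCm38.p6, and capitals mark CpG dinucleotides.
Sohlh2, chr3:55181794-55182043, plus strand: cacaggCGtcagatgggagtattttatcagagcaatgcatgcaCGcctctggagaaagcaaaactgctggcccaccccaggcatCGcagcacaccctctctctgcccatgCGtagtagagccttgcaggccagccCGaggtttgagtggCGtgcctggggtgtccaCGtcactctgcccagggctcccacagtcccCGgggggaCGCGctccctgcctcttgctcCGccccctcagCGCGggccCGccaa
Sohlh1, chr2:25847249-25847498, minus strand: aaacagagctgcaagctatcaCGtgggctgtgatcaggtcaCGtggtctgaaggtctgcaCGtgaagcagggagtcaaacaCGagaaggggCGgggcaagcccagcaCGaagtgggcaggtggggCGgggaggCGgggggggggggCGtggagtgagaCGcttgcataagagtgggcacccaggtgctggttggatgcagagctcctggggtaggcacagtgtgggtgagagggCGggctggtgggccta
Taf7l, chrX:134476491-134476740, minus strand: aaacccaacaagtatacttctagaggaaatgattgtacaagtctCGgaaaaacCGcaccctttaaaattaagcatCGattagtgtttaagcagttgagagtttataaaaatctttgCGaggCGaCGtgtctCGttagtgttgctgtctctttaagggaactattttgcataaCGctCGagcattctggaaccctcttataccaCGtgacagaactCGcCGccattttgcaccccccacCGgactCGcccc
The printed stretches hold 14 CpG in Sohlh2, 11 in Sohlh1 and 14 in Taf7l. RefSeq windows of 300 bases (250 before and 50 after the start) were given for 8 of the 10 regulators, with 2 windows for Dmrtb1, and none for Taf4b and Dmrt1. Over the whole window Sohlh2 and Taf7l had 17 CpG each, Figla 16, Sohlh1 14, Nobox 13, Brdt 23 and Lhx8 4, and the windows of Dmrtb1 had 28 and 9. The median over 32851 windows was 7, and 70.3% of them held no more CpG than that of Sohlh2.

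Short motifs were searched on both strands of these windows as a description. CACGTG, the palindromic E-box, occurred in 3 of the 8 regulators, against 7.15% of all windows. Sohlh1 had 3 copies, starting at -231, -211 and -192 from the start site, Taf7l had 1 at -49 and Brdt 1 at -78, and these letters were not in the window of Sohlh2. GGGCGG, the GC box, was in 4 regulators (Sohlh1, Sohlh2, Figla and Dmrtb1) and in 35.7% of windows, TATAAA was in Taf7l and in 13.6% of windows, and GCGGGA was in 0 of the 8 and in 20% of windows. The looser E-box CANNTG, which includes every CACGTG, was in 7 of the 8 and in 72.3% of windows.

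The median log2 value of an array was 5.06 to 5.10, and over the named features arrays correlated at r = 0.9936 to 0.9960 within a group and 0.9919 to 0.9947 across groups (across features, which are no replicates). Most embryonic stem cell genes bore out the label with values well above the array median, though Dppa5a, at 4.97 to 5.25, did not. The 12 markers, among them Pou5f1, Nanog and Sox2, had summed values of 116.8 to 116.9 in untreated and 116.1 to 116.2 in AA2G cells. Limma called 0 of them changed. At an unadjusted p under 0.05, 1 was higher (Klf2) and 3 were lower (Klf4, Nanog and Pou5f1). Without detection calls in the table, low values are not distinguished from background. In a culture, more cells that use a gene and more RNA per cell cannot be told apart.

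Of the 10 regulators, Sohlh2 rose with AA2G, the other 9 did not pass the test, and 0 were called lower. A call is a Benjamini-Hochberg adjusted p under 0.05 in the limma model over 23521 features. In that model 0.608% of features were called higher and 0.153% lower. Of the 10, 7 regulators had a positive log2 fold change, with a median of 0.06, where 47.7% of all features were positive with a median of -0.01. The count of positive regulators was 5 with a median of 0.02 without AA2G replicate 3, 6 with 0.04 without untreated replicate 1 and 6 with 0.09 with array weights. Without Sohlh2 the other 9 ranged from -0.25 to 0.58 with the median still 0.06.

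**Figure D1:**
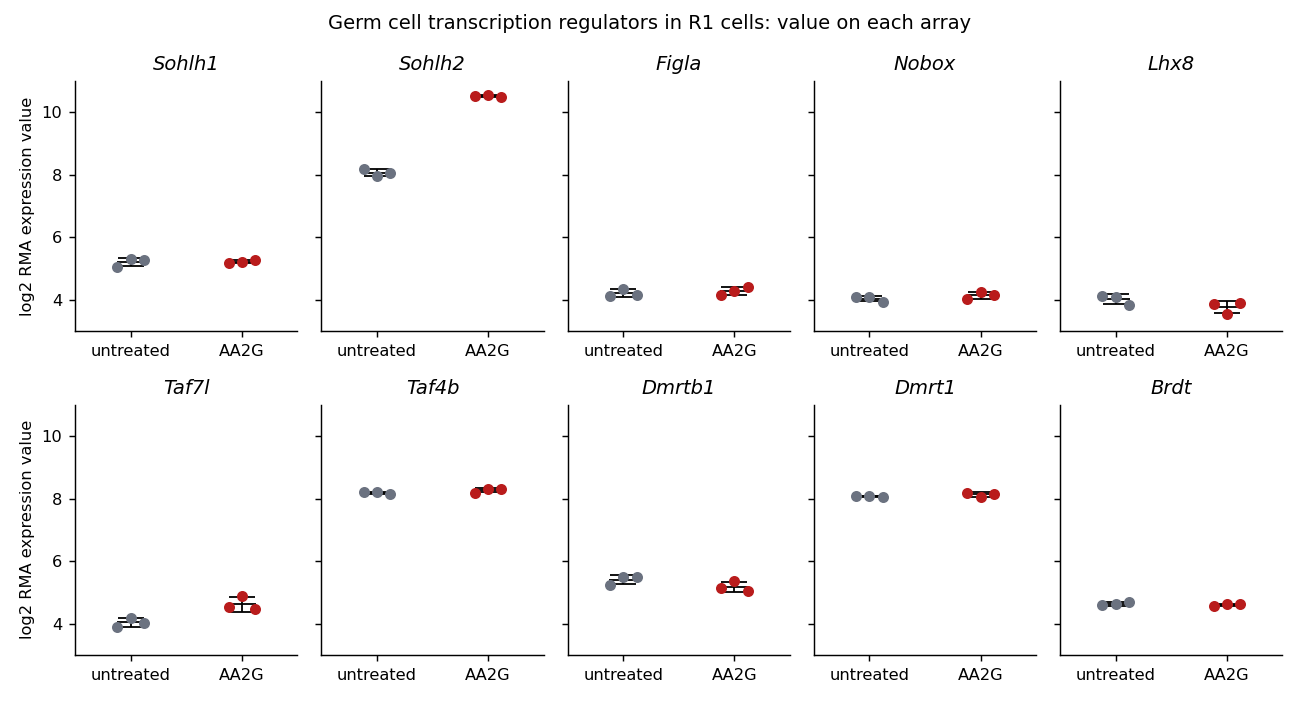
Log2 RMA expression value of each of the 10 regulators on every array, untreated in grey and AA2G in red; points are arrays, and the black bars are the mean ± SD of 3 arrays. Only for Sohlh2 and Taf7l do the 3 AA2G points lie wholly apart from the 3 untreated points, from 7.96 to 8.19 against 10.50 to 10.55 for Sohlh2.

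Sohlh2 (Entrez Gene 74434, chromosome 3) read 8.19, 7.96 and 8.06 on the untreated arrays and 10.52, 10.55 and 10.50 on the AA2G arrays. The groups were far apart, and the AA2G arrays lay within a narrow band. The log2 fold change was 2.45 ± 0.08 (SE), a 5.48-fold rise with a 95% interval of 2.27 to 2.64 on the log2 scale (limma adjusted p = 2.25e-05). Its unadjusted p ranked 1 and its rise ranked 2 among the 23521 features. It was called higher under each of the 15 alternative settings tried, with fold changes of 2.40 to 2.51 on the log2 scale and limma adjusted p from 6.38e-07 to 0.0313.

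Sohlh1 (227631, chromosome 2), whose product pairs with SOHLH2, read 5.07, 5.31 and 5.27 without and 5.19, 5.21 and 5.27 with AA2G. The groups overlapped, and the fitted value was 0.01 ± 0.09 with an interval of -0.19 to 0.20 (limma adjusted p = 0.988). Its sign turned negative with array weights and without untreated replicate 1 or AA2G replicate 3. The values of Sohlh1 lay near the array median of 5.06 to 5.10, and no detection calls tell such values from background. The within-array difference of Sohlh2 over Sohlh1 grew by 2.45 on the log2 scale with AA2G, with no overlap between groups. This growth restates the rise of Sohlh2, since Sohlh1 was at 0.01. The exact two-sided permutation p of that growth was 0.1, the smallest that 3 against 3 arrays can give, and 0.2 after Benjamini-Hochberg adjustment over 6 pairs of related genes compared, pairs picked after the values were seen.

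**Figure D2:**
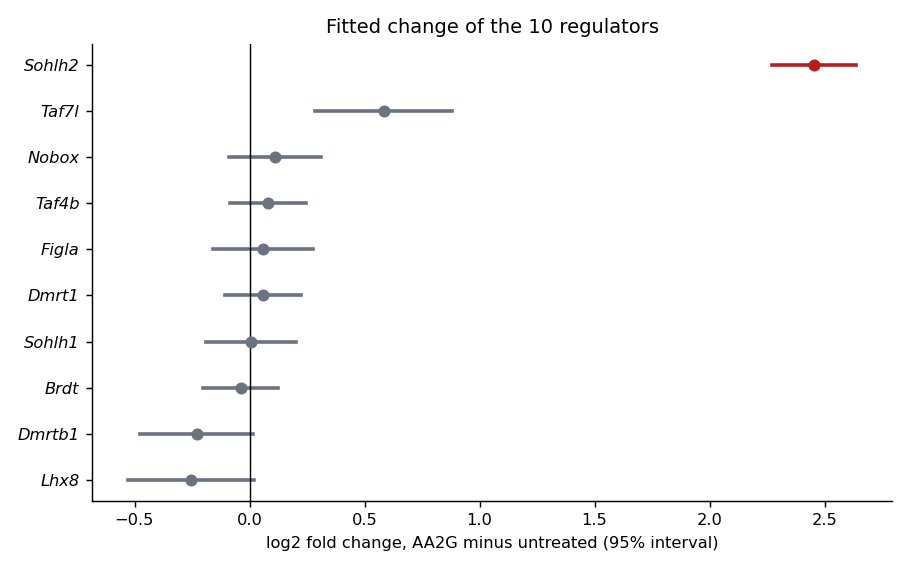
Fitted log2 fold change (AA2G minus untreated) of each regulator with its 95% interval from limma, ordered by size; red marks the gene called at an adjusted p under 0.05. Sohlh2 stands at 2.45, Taf7l at 0.58, and the intervals of the other 8 include 0.

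Among the oocyte regulators 0 passed. Figla (26910), which activates zona pellucida genes, read 4.14, 4.35 and 4.17 in untreated and 4.15, 4.28 and 4.41 in AA2G cells, a difference of 0.06 ± 0.09 (SE; limma adjusted p = 0.900) that turned to -0.0039 without AA2G replicate 3. Nobox (18291), an oocyte homeobox gene, read 4.10, 4.08 and 3.95 without and 4.04, 4.26 and 4.17 with AA2G (0.11 ± 0.09, limma adjusted p = 0.759). Both genes had overlapping groups. Lhx8 (16875), a LIM-homeobox gene, read 4.11, 4.11 and 3.84 in untreated and 3.86, 3.55 and 3.89 in AA2G cells, where the highest AA2G array lay just above the lowest untreated one. Its value was -0.25 ± 0.12 with an interval of -0.53 to 0.02 (limma adjusted p = 0.549). It was -0.11 with array weights and -0.15 (without AA2G replicate 2) to -0.34 (without untreated replicate 3) with single arrays left out. All 3 lie under 4.99, the value that separates the dimmest 40% of features from the rest, so they were not part of the fit of brighter features.

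Taf7l (74469, chromosome X), a germ cell relative of the TFIID subunit gene Taf7, was the other regulator whose groups did not overlap. It read 3.91, 4.18 and 4.03 on untreated and 4.52, 4.89 and 4.45 on AA2G arrays, and AA2G replicate 2 was the highest. Taf7l lay under 4.99 on every array and was not part of the fit of brighter features. Of the 10 regulators, 2 had AA2G arrays wholly above the untreated ones and 0 wholly below, where 7.21% and 8.48% of all features did. The fitted difference of Taf7l was 0.58 ± 0.13 (SE), with an interval of 0.29 to 0.88 and a limma adjusted p of 0.125, so it was not called (unadjusted p = 0.0019, rank 360). It was not called under any of the 14 alternatives it entered, where the adjusted p ran from 0.0547 with array weights to 0.414 with ordinary per-feature variances and the value from 0.45 to 0.67. Taf7 itself was at 0.01 ± 0.08 (limma adjusted p = 0.981), positive or negative depending on the array left out, and the difference between Taf7l and Taf7 grew by 0.57 (exact permutation p = 0.1, adjusted 0.2).

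Taf4b (72504, chromosome 18), the gonadal relative of Taf4, read 8.21, 8.21 and 8.15 without and 8.19, 8.31 and 8.31 with AA2G. The groups overlapped at 0.08 ± 0.07 (SE; limma adjusted p = 0.799, interval -0.09 to 0.25). Taf4 was at -0.10 ± 0.08 (limma adjusted p = 0.757), and the within-array difference between these genes moved by 0.18 (exact permutation p = 0.1, adjusted 0.2). Besides the regulators, 16 subunits associated with TFIID or the SAGA complex were measured, of which 1 rose, 0 fell and 15 did not pass. The list median was 0.01, with 11 positive values. The sign of that median turned without AA2G replicate 2 (-0.02, 7 positive) and without untreated replicate 1 (-0.01, 8 positive). The riser was Taf9b, the X-linked relative of Taf9, which read 6.60, 5.93 and 6.14 in untreated and 7.73, 7.37 and 7.43 in AA2G cells, a 2.44-fold rise (log2 1.28 ± 0.17, limma adjusted p = 0.0161). Untreated replicate 1 was the highest of its group but stayed below every AA2G array. Taf9 stood at 0.02, Tbp, the TATA-binding subunit, at 0.01, Taf2 at 0.13 and Taf5 at -0.20 (limma adjusted p = 0.345). The call of Taf9b was lost without untreated replicate 3 (adjusted p = 0.0962) or AA2G replicate 1 (0.0546), 2 (0.0547) or 3 (0.0644), in the fit of all features (0.0726) and with ordinary per-feature variances (0.260), at log2 values of 1.14 to 1.47 over all alternatives.

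The DM-domain genes did not pass. Dmrt1 (50796), which maintains the spermatogonial state, read 8.07, 8.09 and 8.07 in untreated and 8.19, 8.05 and 8.15 in AA2G cells, at 0.06 ± 0.07 (SE; limma adjusted p = 0.861). Dmrtb1 (56296), which acts as spermatogonia enter meiosis, read 5.25, 5.49 and 5.48 without and 5.13, 5.35 and 5.05 with AA2G, at -0.23 ± 0.11 with an interval of -0.47 to 0.02 (limma adjusted p = 0.547). The groups of both genes overlapped. The within-array difference between Dmrt1 and Dmrtb1 moved by 0.29, also with overlapping groups (exact permutation p = 0.2, adjusted 0.3). Of 7 other measured DMRT family genes, limma called 0 in either direction. The smallest p-values belonged to Dmrtc1b (0.28, under 4.99 on every array), Dmrtc2 (0.17), Dmrtc1a (-0.09) and Dmrta2 (0.08). The list median was -0.01 and, at an unadjusted p under 0.05, 2 were higher and 0 lower. With single arrays left out that median ran from -0.01 to 0.04, and it was -0.07 with array weights.

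Brdt (114642), the testis member of the BET bromodomain family, read 4.58, 4.62 and 4.71 in untreated and 4.56, 4.62 and 4.62 in AA2G cells. The groups overlapped at -0.04 ± 0.07 (SE; limma adjusted p = 0.923, interval -0.20 to 0.13). Brdt too lay under 4.99 on every array and was not part of the fit of brighter features. Its broadly used relatives Brd2 and Brd3 were at -0.11 and -0.08 (limma adjusted p = 0.799 and 0.804). The within-array differences of Brdt over Brd2 and over Brd3 moved by 0.07 and 0.04. Groups overlapped in both pairs (exact permutation p = 0.6 and 0.5, each 0.6 after adjustment).

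**Figure D3:**
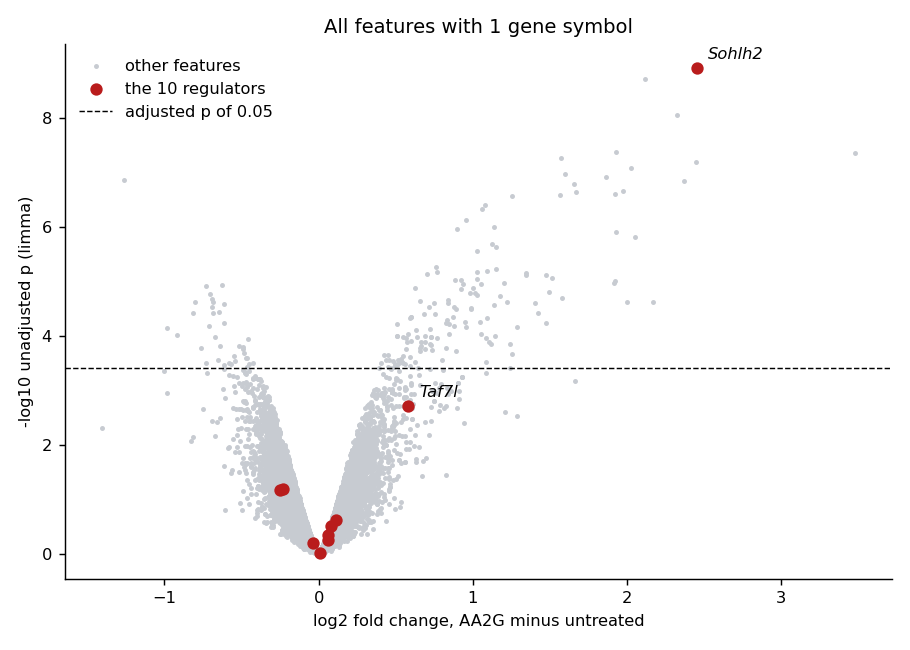
Each point is 1 of 23521 features with a single gene symbol, with its log2 fold change (AA2G minus untreated) on the x axis and the -log10 unadjusted limma p on the y axis; the 10 regulators are red, and the dashed line marks the adjusted p of 0.05. Sohlh2 has the smallest p of all features, Taf7l lies under the line, and the other 8 lie between -0.25 and 0.11.

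The wider set of germ cell regulators was read from a list of 41 genes with other roles in spermatogonia, meiosis or the oocyte, of which 40 were measured. Of these, 2 rose, 0 fell and 38 did not pass, and the list median was 0.00, or -0.03 to 0.03 with single arrays left out. It was -0.06 over the 28 brighter genes (12 positive) and -0.02 with array weights (15 of 40 positive). Rhox13, an X-linked homeobox gene of germ cells, read 5.01, 5.21 and 4.88 in untreated and 6.78, 7.16 and 6.92 in AA2G cells, a 3.79-fold rise (log2 1.92 ± 0.12, limma adjusted p = 0.000352) whose call was lost, of the 15 alternatives, with ordinary per-feature variances (0.100). Stra8, the retinoic acid target that starts meiosis, read 6.04, 6.20 and 6.23 without and 6.75, 7.13 and 6.89 with AA2G. It rose 1.70-fold (log2 0.77 ± 0.11, limma adjusted p = 0.0218), and the groups did not overlap. Its call was lost without untreated replicate 1 (0.0848), 2 (0.0717) or 3 (0.0878), without AA2G replicate 2 (0.0547) or 3 (0.0920), in the fit of all features (0.0833) and with ordinary variances (0.243). The next smallest p-values were those of Rhox10 (0.36 ± 0.12, limma adjusted p = 0.311) and Bcl6b (-0.30 ± 0.10, adjusted 0.328), a spermatogonial stem cell regulator, followed by Dmrtc2 and Ovol1 (-0.24). Rhox10 and Ovol1 lay under 4.99 on every array.

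Genes that act downstream of these factors in the oocyte were taken as a list of 22, all measured. Of these, 2 rose, 0 fell and 20 did not pass, with a median of 0.03 and 16 positive values. Over all features 0.608% were called higher and 47.7% were positive. Only 7 of the 22 were part of the fit of brighter features, with 4 positive and a median of 0.01. The risers were the oocyte NLR-family genes Nlrp14, from 4.02, 3.64 and 3.71 to 4.65, 4.48 and 4.92 (log2 0.89 ± 0.14, limma adjusted p = 0.0316), and Nlrp4f, from 3.71, 3.99 and 3.67 to 4.41, 4.50 and 4.42 (0.66 ± 0.10, adjusted 0.0286). Both lay under 4.99 on every array of both groups and were not part of the fit of brighter features. Nlrp14 lost its call without untreated replicate 2 (0.111) or 3 (0.174), without AA2G replicate 1 (0.0920), 2 (0.0529) or 3 (0.0969), in the fit of all features (0.115) and with ordinary variances (0.297). Nlrp4f lost it without untreated replicate 1 (0.104) or 3 (0.150), without AA2G replicate 1 (0.0843), 2 (0.136) or 3 (0.116), in the fit of all features (0.0996) and with ordinary variances (0.243). The zona pellucida gene Zp3 was at 0.13 ± 0.10 (limma adjusted p = 0.764) and the oocyte growth factor gene Gdf9 at 0.01 ± 0.09 (adjusted 0.990), with overlapping groups in both. Oosp3 (0.17) and Nlrp5 (0.37), both under 4.99 on every array, had the next smallest p-values and did not pass.

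Of 16 spermatogonial genes tied to SOHLH or DMRT1, 1 rose, which is Stra8 again, 0 fell and 15 did not pass, with a median of 0.03. That median has no settled sign, at -0.04 without AA2G replicate 1, -0.01 without untreated replicate 3 and -0.02 over the 12 brighter genes. Kit, the receptor gene of differentiating spermatogonia, read 9.47, 9.15 and 9.31 without and 9.61, 9.38 and 9.52 with AA2G (0.20 ± 0.10, limma adjusted p = 0.610), and the groups overlapped. The next smallest p-values were those of the PIWI gene Piwil4 (0.44 ± 0.10, limma adjusted p = 0.132), the DNA methyltransferase cofactor gene Dnmt3l (0.31 ± 0.08, adjusted 0.161) and Tex13a (-0.47 ± 0.12, adjusted 0.167). Tex13a lay under 4.99 on every array. The cyclin gene Ccnd2 had the largest negative value of the list, -1.40 ± 0.37 (adjusted 0.196), which passed without untreated replicate 1 (0.0185) and with array weights (0.0341).

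Basic helix-loop-helix factors of germ cells can bind DNA with the widely used E-proteins, and the ID proteins block such pairing. In the list of 7 E-protein and ID genes 0 were called by limma, 7 had a negative value with a median of -0.12, and 0 higher and 2 lower had an unadjusted p under 0.05. Tcf12, an E-protein gene, read 7.58, 7.56 and 7.46 in untreated and 7.24, 7.19 and 7.17 in AA2G cells, with no overlap (-0.34 ± 0.07, limma adjusted p = 0.103). It passed with brighter features only (0.0458) and with array weights (0.0492). Id1 was at -0.28 ± 0.08 (limma adjusted p = 0.215), Tcf4 at -0.15 ± 0.07 (0.577) and Tcf3, whose product pairs with FIGLA, at -0.07 ± 0.09 (0.877). The 7 values were negative under each scaling tried, but 2 turned positive without untreated replicate 1 and 2 without AA2G replicate 1. Over these 7 lists, 105 distinct genes other than the 10 regulators were measured. Of these, 5 rose (4.76%) and 0 fell, where 0.608% and 0.153% of all features were called higher and lower. The lists were written with earlier results of these data known, so the counts are no independent support. At an unadjusted p under 0.05, 10 were higher and 9 lower, where 4.66% and 5.06% of all features were.

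**Figure D4:**
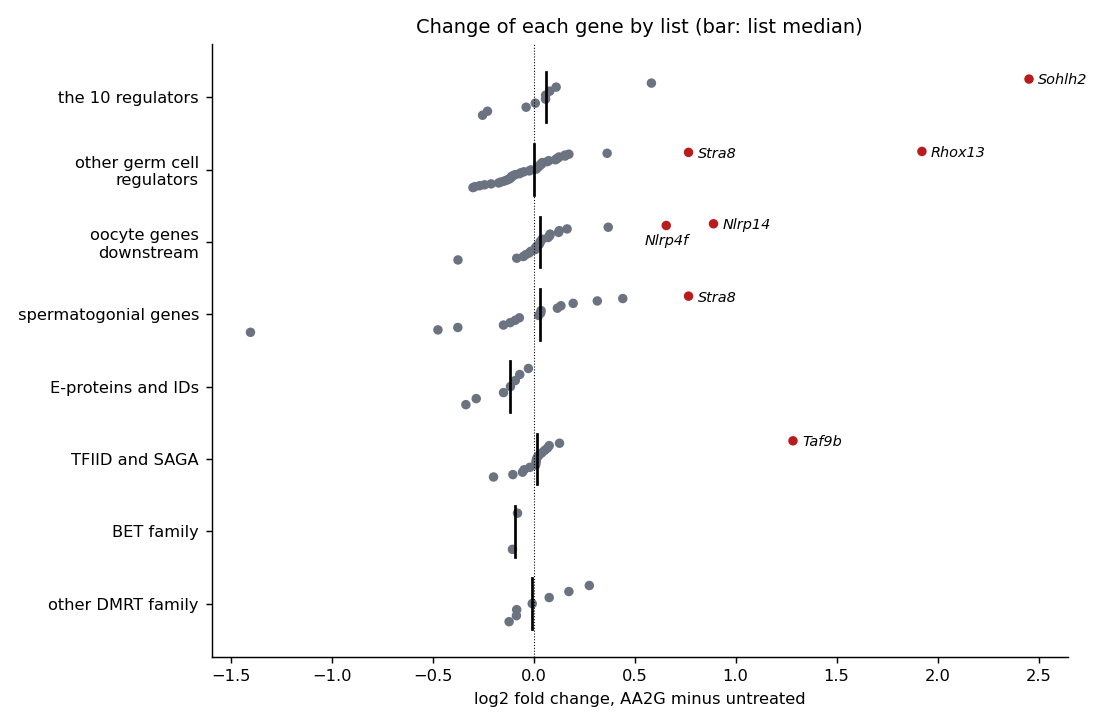
Log2 fold change (AA2G minus untreated) of each measured gene, 1 point a gene, for the 10 regulators and 7 related lists; red points were called higher by limma, and black bars are list medians. The medians lie between -0.12 and 0.06, and Sohlh2 at 2.45, Rhox13 at 1.92 and Taf9b at 1.28 lie farthest to the right.

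The features whose 6 values followed those of Sohlh2 most closely were sought among 336 others that span at least 1 on the log2 scale. By Pearson correlation over the 6 arrays they were Fmr1nb (r = 0.9992), a testis-expressed X-linked gene, Rec114 (0.9983), needed for meiotic DNA breaks, Pla2g4a (0.9979), a cytosolic phospholipase A2 gene, M1ap (0.9977), a meiosis gene, and Morc1 (0.9972), which acts in transposon silencing in male germ cells. These r values describe 6 arrays in 2 groups that all 5 features separate, and no p is attached to them. Choice by likeness to Sohlh2 favours features with separated groups and little spread. The rises and calls given next therefore describe these 5 and are no further support. Pla2g4a read 4.50, 4.39 and 4.48 without and 5.46, 5.58 and 5.51 with AA2G, a rise of 1.06 ± 0.07 (limma adjusted p = 0.000554). M1ap read 6.74, 6.66 and 6.77 without and 7.72, 7.67 and 7.64 with AA2G, a rise of 0.95 ± 0.07 (adjusted 0.000833). Morc1 rose by 1.93 ± 0.10 (adjusted 0.00021), from a range of 7.01 to 7.33 to one of 9.13 to 9.16. Of these 5 only Morc1 lost its call under any of the alternatives tried, with ordinary per-feature variances (0.0587).

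**Figure D5:**
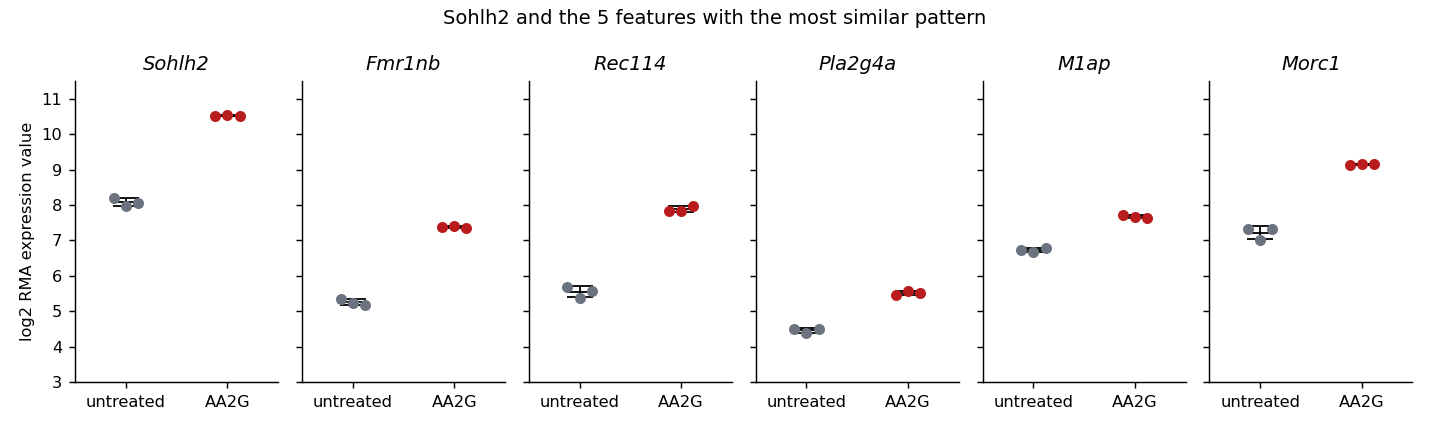
Log2 RMA expression value on every array for Sohlh2 and the 5 features most correlated with it, untreated in grey and AA2G in red; black bars are the mean ± SD of 3 arrays. In all 6 panels the AA2G arrays lie above the untreated arrays, with the smallest fitted rise, 0.95, in M1ap. The choice by correlation with Sohlh2 favours such separation.

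The protein-coding genes beside each regulator were read too, 3 on each side in RefSeq order, a step added after the values of the regulators were seen. Beside Sohlh2, Ccdc169 on one side was at 0.35 ± 0.11 (SE; limma adjusted p = 0.286) and Dclk1 on the other at 0.04 ± 0.09 (0.928). Ccna1, Spg20, Nbea and Mab21l1, farther out, lay between -0.08 and 0.05. Beside Taf4b, whose own value was 0.08, the neighbouring gene Psma8, a testis proteasome subunit gene, rose by 1.08 ± 0.07 (limma adjusted p = 0.000483) and kept its call under all 15 alternatives, while Kctd1 on the other side was at 0.11. Psma8 was the only called gene among the measured neighbours of the 10 regulators.

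Markers of germ cells were read beside these results. Of 11 measured markers of later germ cells, Dazl rose by 2.37 ± 0.14 (limma adjusted p = 0.000284) and Mael by 1.14 ± 0.13 (adjusted 0.00886), 0 fell and 9 did not pass. At an unadjusted p under 0.05, 2 were higher and 1 lower, which was Ddx4, the germ cell helicase, at -0.17 without group overlap. The summed values of the 11 ran from 60.7 to 62.1 in untreated and 64.8 to 65.6 in AA2G cells. Dazl and Mael had by far the largest rises in those sums, and the list median was 0.06 with 7 positive values. Sycp1 was at 0.24 and the sperm genes Tnp1 and Prm1 were at -0.01 and 0.06. The call of Mael was lost without untreated replicate 3 (0.0602), without AA2G replicate 2 (0.0529) and with ordinary variances (0.219), and that of Dazl with ordinary variances (0.0972). For 8 markers of primordial germ cells the sums were 58.5 to 59.4 and 59.0 to 59.7, with 0 called by limma and, at an unadjusted p under 0.05, Ifitm3 higher (0.48) and Dnd1 lower (-0.17). For 8 Sertoli and granulosa markers, the supporting cells of the gonads, the sums were 43.1 to 44.4 and 43.6 to 43.8, with 0 called and 0 under an unadjusted p of 0.05. Primitive endoderm, trophoblast, neuroectoderm, mesoderm and fibroblast markers (9, 8, 5, 5 and 6 measured) also had 0 called by limma, and by unadjusted p under 0.05 those higher and lower were 1 and 1, 0 and 2, 0 and 1, 0 and 0, and 0 and 1. Low marker values are not distinguished from background, so the presence of these other cell types cannot be read from them. The part of other cells in the rise of Sohlh2 was not tested.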

How the data were processed

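Expression was measured on 6 Affymetrix arrays, 3 of untreated and 3 of AA2G-treated R1 cells. The deposited values are log2 expression made by the authors with RMA and, per the submitters' processing notes, Affymetrix Expression Console. The sources used here do not name versions, an annotation release or filters, and 0 columns of other samples were present. RMA's normalization between arrays hides changes in total RNA per cell, and fold changes of dim features are understated on this scale. Arrays give no read depth, and their number limits the precision.

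Features were named through the platform annotation: 23521 had exactly 1 gene symbol and were tested, 1814 had several and 16010 had none listed. By Entrez identifier 23328 of the tested features matched RefSeq genes of GRCm38.p6. AA2G was compared with untreated cells in limma 3.58.1 (R 4.3.3, lmFit and eBayes, two-sided, no covariate), with Benjamini-Hochberg adjustment over 23521 features, and 95% intervals used the moderated degrees of freedom. Lists used 1 feature per gene, the brightest. Exact permutation tests used scipy 1.17.1. The limma p-values set each difference against the spread between the 3 samples of a group, drawn toward a value shared by all features. The exact permutation p-values compare the observed difference with those of all splits of the 6 arrays into 3 and 3.

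The regulators and lists were chosen with earlier results of these data known. Genes were named by this rule: the 10 regulators; all called genes and up to 4 with the smallest p in each list; a few fixed relatives and targets (Taf7, Taf4, Brd2, Brd3, Tcf3, Tcf12, Kit, Zp3, Gdf9 and 1 that is not reported here); and the 5 features most correlated with Sohlh2. Other names were chosen after their values were seen. On 20 simulated data sets for AA2G versus untreated, each of 23521 features with 200 changed, the fit recovered 45.1% of rises of 0.5 on the log2 scale, 88.2% of 1 and 98.8% of 2.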

Additional observations from a re-analysis of the deposited data

How the results depend on the processing

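The rise of Sohlh2 was called under all 15 alternatives, and of the regulators tested 1 was called higher and 0 lower in each. With brighter features only, 5 of the 10 were tested. No direction is settled for Sohlh1 (-0.0048 with array weights, and -0.066 to 0.054 with single arrays left out), Figla (-0.0039 to 0.12), Taf7 (-0.038 to 0.066), Gdf9 (-0.029 with array weights, and -0.064 to 0.087) or Tcf3 (-0.12 to 0.017). Over all features 143 were higher and 36 lower. The counts were 303 and 193 with array weights and 9 and 4 with ordinary per-feature variances; lower calls were 79 with a trended robust prior, 86 with brighter features only and 20 with all features. With single arrays left out there were 58 to 115 higher and 6 to 17 lower. The share of calls that were higher was 61.1% with array weights, 65.7% with brighter features only, 69.2% with ordinary variances and 90.6% without untreated replicate 3. In the related lists 5 genes rose and 0 fell. These became 3 and 1 with brighter features only, where dim genes were not tested, 1 higher with all features, where more features were tested, 0 higher with ordinary variances, and 3 lower with array weights. With single arrays left out they were 1 to 3 higher and 0 to 1 lower. The cause of these changes was otherwise not tested.

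Same-numbered arrays of the 2 groups had correlated deviations at r = 0.23, 0.22 and 0.02 for numbers 1, 2 and 3, so pairing was not taken as given, although every array correlated best with its own number, a hint from the data and not the design. With the replicate block there were 130 higher and 25 lower calls, 1 regulator was higher and 4 related genes were, without Nlrp14 (limma adjusted p = 0.0643). Limits come from 3 arrays a group and from the 5 regulators whose features are among the dimmest 40%.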
